A study of Mus musculus with 3 samples.

Results

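Foxf1, Foxf2, Foxl1, Nkx2-3, Tcf21 and Osr1 are 6 transcription factor genes of the gut mesenchyme, and they were chosen by name from the 22100 gene symbols counted in 3 single-cell libraries of the mouse small intestine. All 6 were present in the gene list of each library. They were followed in CPM, the UMIs (deduplicated RNA molecules) of a gene scaled to a common library total, in 7 kinds of mesenchymal cell that were set apart with marker genes: subepithelial, mucosal, deep and adventitial fibroblasts, smooth muscle, interstitial cells of Cajal and pericytes. None of the 6 was itself a marker. The libraries came from wild-type, untreated mice at E15.5, E17.5 and P7, with 1 library at each stage, in a study of how the gut elongates. At each stage the epithelial and mesenchymal fractions of the whole small intestine were joined, and viable cells were sorted that were either Epcam positive or negative for Epcam, CD31 and CD45, so the sort set the epithelial share and removed most endothelial and blood cells. Strain, sex and the number of animals behind a library are not given in the sources used here.

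FOXF1, FOXF2 and FOXL1 are forkhead (winged-helix) proteins that are made in mesenchyme lying against the gut endoderm, where Hedgehog ligands from the epithelium are known to switch their genes on. FOXL1 marks the mesenchymal cells directly under the epithelium, including telocytes, which release Wnt and BMP pathway ligands and inhibitors to the crypts and villi. NKX2-3 is a homeodomain protein of visceral mesoderm that is needed for normal villus growth and for the addressin MAdCAM-1 in gut-associated vessels. TCF21 is a basic helix-loop-helix protein of visceral organ mesenchyme and fibroblast progenitors, and OSR1 is an odd-skipped zinc finger protein known from intermediate mesoderm and connective tissue cells.

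The genes lie at 5 places in the genome (GENCODE vM21, GRCm38). Foxf1 (ENSMUSG00000042812.5, chr8:121084386-121088144, plus strand) and Foxl1 (ENSMUSG00000097084.1, chr8:121127940-121130644, plus strand) are neighbours whose starts lie 43554 bases apart. Fendrr, a long noncoding RNA gene, begins 1276 bases from Foxf1 and runs the other way. Foxf2 (ENSMUSG00000038402.2) is at chr13:31625816-31631403 on the plus strand, near the forkhead genes Foxq1 and Foxc1, whose starts lie 69682 and 180817 bases away. Nkx2-3 (ENSMUSG00000044220.13) is at chr19:43612325-43615892 on the plus strand, and the noncoding gene Gm20467, whose start in this annotation lies 1700 bases away, runs away from it on the minus strand. Tcf21 (ENSMUSG00000045680.8) is at chr10:22817281-22820174 on the minus strand and is overlapped on the plus strand by Gm10824, which had 1.5 to 2.3 CPM in the gated cells. Osr1 (ENSMUSG00000048387.8) is at chr12:9570116-9581500 on the plus strand.

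Promoter windows of 300 bases, 250 before and 50 from the RefSeq start, were matched for 3 members, Foxf2, Nkx2-3 and Tcf21, and for Fendrr (RefSeq, GRCm38.p6). They are shown because 2 of them, of Nkx2-3 and Fendrr, belong to divergent gene pairs whose levels are compared further on, and the Foxf2 and Tcf21 windows stand beside them for base composition. Capitals mark the bases from the RefSeq start on and, in Fendrr, also a forkhead motif.
Foxf2 (chr13:31625566-31625865, plus strand): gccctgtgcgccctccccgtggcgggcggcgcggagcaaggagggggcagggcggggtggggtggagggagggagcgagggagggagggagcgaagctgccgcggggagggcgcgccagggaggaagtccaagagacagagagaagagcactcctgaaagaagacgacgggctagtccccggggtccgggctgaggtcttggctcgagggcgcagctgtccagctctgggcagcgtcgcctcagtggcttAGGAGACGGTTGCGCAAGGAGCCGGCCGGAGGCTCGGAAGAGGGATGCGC
Nkx2-3 (chr19:43612075-43612374, plus strand): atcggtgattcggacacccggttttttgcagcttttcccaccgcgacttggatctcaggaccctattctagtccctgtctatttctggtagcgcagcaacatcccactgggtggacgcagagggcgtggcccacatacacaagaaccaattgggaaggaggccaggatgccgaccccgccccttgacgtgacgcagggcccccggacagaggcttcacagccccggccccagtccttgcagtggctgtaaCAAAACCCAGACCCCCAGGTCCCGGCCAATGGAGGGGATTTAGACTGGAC
Tcf21 (chr10:22820094-22820393, minus strand): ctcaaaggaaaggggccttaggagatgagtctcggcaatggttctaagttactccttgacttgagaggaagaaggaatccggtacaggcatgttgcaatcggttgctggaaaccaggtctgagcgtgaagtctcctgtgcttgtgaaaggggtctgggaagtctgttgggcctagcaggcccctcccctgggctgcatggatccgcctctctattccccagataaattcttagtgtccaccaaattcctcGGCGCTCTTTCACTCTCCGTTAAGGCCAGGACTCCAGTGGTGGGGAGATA
Fendrr (chr8:121083061-121083360, minus strand): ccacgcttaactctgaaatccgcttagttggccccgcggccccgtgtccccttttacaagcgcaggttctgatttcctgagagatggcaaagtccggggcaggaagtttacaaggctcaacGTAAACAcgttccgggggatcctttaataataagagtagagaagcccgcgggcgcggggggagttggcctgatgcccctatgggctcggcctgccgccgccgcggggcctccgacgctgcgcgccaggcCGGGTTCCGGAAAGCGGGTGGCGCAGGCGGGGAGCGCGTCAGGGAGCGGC
The windows were searched on both strands for the forkhead motif TGTTTAC and the GLI motif GACCACCCA, which do not overlap each other. The forkhead motif was found in 1199 of 32851 promoter windows of the same length (3.65%) and the GLI motif in 83 (0.253%). Neither was found in the Foxf2, Nkx2-3 or Tcf21 window. The Fendrr window held the forkhead motif once, read as GTAAACA, 129 bases before the start. G and C made up 71.3% of the Foxf2 window, 60.0% of the Nkx2-3 window, 53.3% of the Tcf21 window and 64.7% of the Fendrr window, against a median of 52.7% over all windows. The RefSeq start of Gm20467 lies 269 bases from that of Nkx2-3, so that their windows share 232 bases.

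The libraries held 8447, 11598 and 8391 cells and 93501273, 94023160 and 116038115 UMIs at E15.5, E17.5 and P7. Of the cells, 5716, 7338 and 1619 passed as mesenchymal, and 4006, 6146 and 1250 of these (70.1%, 83.8% and 77.2%) were assigned to 1 of the 7 kinds, with a median of 7308, 5498 and 4522.5 UMIs per cell. The kinds are ranges of a marker score rather than sharp classes: 485, 470 and 141 assigned cells lay near a threshold, and 77.5%, 81.8% and 69.2% of assigned cells had the same name when cells were clustered instead. At P7 the subepithelial gate held 8 cells, and at E15.5 the adventitial gate held 23, so neither enters a comparison. Markers of other kinds were present in some gates. The median cell of the P7 pericyte gate had 3331 CPM over the pericyte list and 15417 CPM over the muscle list, and the median cell of the E15.5 subepithelial gate had 1624 CPM over its own list and 4112 CPM over the mucosal list. In the Cajal gate it had 816 and 1425 CPM over its own list and 809 and 518 CPM over the muscle list at E15.5 and E17.5. In the P7 Cajal gate it had 735 CPM over its own list, 1228 CPM over the muscle list and 1032 CPM over the pericyte list. In the adventitial gate it had 949 and 2030 CPM over its own list and 1068 and 2042 CPM over the deep list at E17.5 and P7. The part of such mixing in the values of these gates was not tested. Epithelial RNA also moved with stage: the enterocyte transcript Apoa4 was at 0 to 2.4, 7.1 to 12.3 and 234 to 497 CPM across the 7 gates at E15.5, E17.5 and P7. Ratios of P7 over E17.5 that moved without cells that had Epcam, Fabp2 or Apoa4 are given at the end. The part of epithelial RNA in the levels was not tested. The members themselves were at 0.01 to 1.95 CPM in gated epithelial cells. The deposited barcode name files of the 3 libraries are identical, so barcodes shared between libraries could not be counted. With 1 library a stage there is no test between stages: all intervals are 95% intervals that cover counting error only, and a difference between stages cannot be told apart from one between libraries.

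Foxf1 was found in every kind of mesenchymal cell, with its highest levels under the epithelium and in Cajal cells. In subepithelial fibroblasts Foxf1 stood at 348 CPM (95% interval 332–364) at E15.5 and 471 CPM (442–501) at E17.5, with 13 UMIs in the 8 cells of P7. In Cajal cells it stood at 323 CPM (304–343), 453 CPM (425–482) and 425 CPM (339–527) at E15.5, E17.5 and P7. Subepithelial fibroblasts and Cajal cells therefore overlapped at both embryonic stages, and at E15.5 muscle, at 327 CPM (316–338), overlapped with them too. The later muscle levels were lower, 235 CPM (226–245) at E17.5 and 155 CPM (134–177) at P7. Mucosal fibroblasts had 241 CPM (225–259), 255 CPM (244–266) and 263 CPM (241–286), with overlapping intervals at all 3 stages. Deep fibroblasts had 215 CPM (204–226), 158 CPM (151–166) and 151 CPM (120.1–187), and pericytes had 148 CPM (135–163), 152 CPM (139–166) and 190.4 CPM (160.4–224). Adventitial fibroblasts had the lowest level at E17.5, 50.3 CPM (36.7–67.3; 45 UMIs), and 133 CPM (112–156) at P7. Among gates of 50 or more cells, the highest exceeded the lowest 2.3-fold, 9.4-fold and 3.2-fold at E15.5, E17.5 and P7.

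Foxf2 was graded much more steeply, and its order was the same at E15.5 and E17.5: subepithelial first, then mucosal fibroblasts, muscle, deep fibroblasts, pericytes and, last, Cajal cells, with the 7 UMIs of adventitial fibroblasts at E17.5 between the last 2. Subepithelial fibroblasts had 166 CPM (155–177) at E15.5 and 162 CPM (146–180.4) at E17.5. Mucosal fibroblasts had 89.9 CPM (80–101), 59.8 CPM (54.6–65.3) and 84.8 CPM (72.6–98.4) at E15.5, E17.5 and P7. Muscle had 55.9 CPM (51.5–60.5), 38.4 CPM (34.8–42.3) and 42.2 CPM (32–54.7). Each of these 3 kinds stood above the next without overlap at both embryonic stages. Deep fibroblasts had 32.4 CPM (28.2–37) at E15.5, 15.1 CPM (12.8–17.7) at E17.5 and 7.27 CPM (1.98–18.6; 4 UMIs) at P7. Cajal cells, where Foxf1 was among its highest, had only 7.82 CPM (5.11–11.5) of Foxf2 at E15.5 and 3.57 CPM (1.54–7.03) at E17.5. At P7 the Cajal level was 20.5 CPM (5.58–52.5; 4 UMIs), below the mucosal and muscle levels alone and overlapping every gate but the mucosal one, so the embryonic order did not hold there. The subepithelial level of Foxf2 was 21.2-fold that of Cajal cells at E15.5 and 45.5-fold at E17.5.

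Foxl1 was found mostly in the gates of subepithelial and mucosal fibroblasts, which held 69.4% and 17.4% of its gated UMIs at E15.5 and 39% and 51.5% at E17.5. It stood at 89.2 CPM (81.4–97.7) at E15.5 and 102 CPM (89.1–117) at E17.5 in subepithelial fibroblasts. In mucosal fibroblasts it stood at 35.8 CPM (29.7–42.9), 35.3 CPM (31.3–39.6) and 13.7 CPM (9.12–19.8; 28 UMIs) at E15.5, E17.5 and P7. Deep fibroblasts and pericytes had 6.18 and 6.54 CPM at E15.5, and the level in muscle was 1.5 CPM (0.859–2.44; 16 UMIs) at E15.5 and 0.659 CPM (0.265–1.36; 7 UMIs) at E17.5. The subepithelial level was 59.4-fold that of muscle at E15.5 and 155-fold at E17.5. Over all gated cells Foxl1 had 21 CPM (19.4–22.6), 15 CPM (13.7–16.2) and 7.02 CPM (5.06–9.49) at E15.5, E17.5 and P7, the last from 42 UMIs, of which the 8 subepithelial cells gave 3 UMIs.

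**Figure D1:**
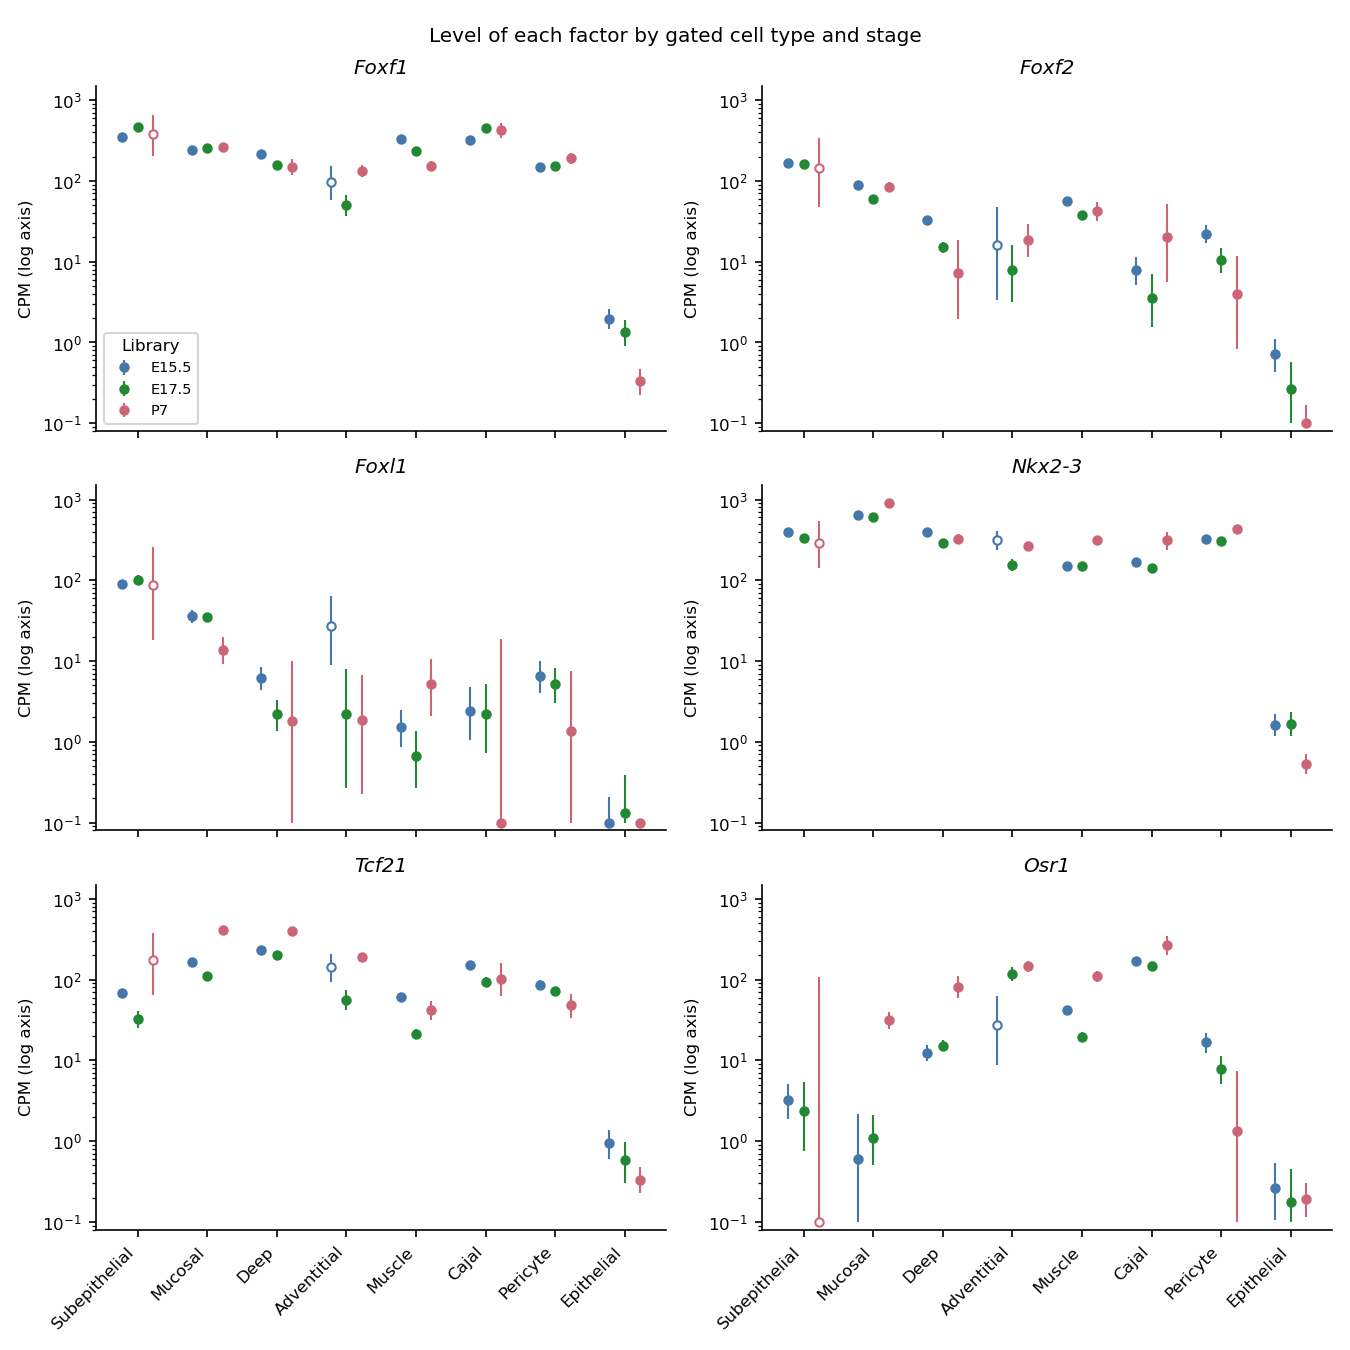
Level of each gene in CPM (log axis) in each gated kind of cell at E15.5, E17.5 and P7, with 95% counting intervals; open points are gates under 50 cells, and values under 0.1 CPM are drawn at 0.1. Nkx2-3 is highest in mucosal fibroblasts at all 3 stages (641, 605 and 906 CPM), and Osr1 is highest in Cajal cells (171, 149 and 266 CPM). At E15.5 and E17.5 Foxl1 is lower in muscle, Cajal cells and pericytes than in the subepithelial and mucosal gates.

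The 3 forkhead genes were set against each other within a stage by dividing the subepithelial level by that of the other fibroblasts together, which uses cells of 1 library. A gene was called here when its CPM differed at least 1.5-fold with 100 or more UMIs on both sides. At E15.5, 3 of the 5 members with enough UMIs were higher in subepithelial fibroblasts, where 7.2% of 6113 genes were, and 1 was lower, where 6.67% of genes were. At E17.5, 3 of 4 were higher, against 18.7% of 3254 genes, and 0 were lower, against 7.01%. The ratio was largest for Foxl1, 2.46 on the log2 scale (2.20–2.73) at E15.5 and 2.65 (2.39–2.90) at E17.5. It was 1.71 (1.55–1.87) and 2.26 (2.07–2.45) for Foxf2, and 0.65 (0.56–0.74) and 1.27 (1.17–1.38) for Foxf1. Tcf21 ran the other way, at -1.61 (-1.78 to -1.45) at E15.5 and -2.26 (-2.63 to -1.92) at E17.5, the second from 70 subepithelial UMIs. Nkx2-3 differed little, at -0.24 (-0.31 to -0.16) and -0.33 (-0.45 to -0.22). The mucosal list was high in the subepithelial gate, as given above, so the contrast compares gates and not pure layers.

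Nkx2-3, the homeodomain member, was present in all kinds of mesenchymal cell and highest in mucosal fibroblasts at every stage. Its mucosal level was 641 CPM (614–669), 605 CPM (589–622) and 906 CPM (865–948) at E15.5, E17.5 and P7, above every other gate with 50 or more cells without overlap. Subepithelial fibroblasts followed at E15.5 with 399 CPM (382–417), overlapping deep fibroblasts at 391 CPM (376–407). Pericytes had 322 CPM (302–342), 305 CPM (286–324) and 436 CPM (389.7–486). Cajal cells and muscle were lowest at E15.5, with 166 CPM (153–181) and 149 CPM (142–157). At P7 they had 313 CPM (239–401) and 311 CPM (282–342), where the deep (325 CPM, 279–376) and adventitial (267 CPM, 237–299.9) fibroblasts overlapped them.

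Tcf21 was highest in deep fibroblasts before birth, and at P7 mucosal and deep fibroblasts were highest together. Deep fibroblasts had 234 CPM (223–246), 204 CPM (195–213) and 396 CPM (345–452) at E15.5, E17.5 and P7. Mucosal fibroblasts had 163 CPM (149.6–178), 109.8 CPM (103–117) and 413 CPM (386–442). Deep fibroblasts were thus apart from mucosal ones at E15.5 and E17.5, and the 2 overlapped at P7. When cells were clustered instead, 0 P7 cells were named deep and 457 adventitial, so the P7 deep values have no counterpart there. Cajal cells had 149 CPM (137–163) at E15.5 and 94.1 CPM (81.9–108) at E17.5. Subepithelial fibroblasts had 68.4 CPM (61.6–75.9) and 32.7 CPM (25.5–41.3) at these stages, and muscle 61.5 CPM (56.9–66.4) and 21.3 CPM (18.6–24.2), so these were the 2 lowest kinds before birth. The antisense gene Gm10824 overlaps Tcf21 and the counting strand is not given in the sources used here, so a small part of the Tcf21 counts may belong to it.

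Among gates of 50 or more cells Osr1 was highest in Cajal cells, and before birth it was lowest in mucosal and subepithelial fibroblasts. Cajal cells had 171 CPM (157–185), 149 CPM (133–166) and 266 CPM (199–349) at E15.5, E17.5 and P7. Adventitial fibroblasts had 117 CPM (95.9–142) at E17.5, overlapping Cajal cells, and 146 CPM (124–171) at P7. Muscle had 42.5 CPM (38.7–46.6), 19.3 CPM (16.7–22.1) and 109.6 CPM (92.6–129), so that its muscle level was lowest at E17.5 and highest at P7 without overlap. Deep fibroblasts had 12.4 CPM (9.83–15.3), 15.3 CPM (12.9–17.9) and 81.7 CPM (59.6–109; 45 UMIs). In mucosal fibroblasts Osr1 was near background before birth, at 0.607 CPM (2 UMIs) at E15.5 and 1.1 CPM (0.502–2.08; 9 UMIs) at E17.5, and reached 31.4 CPM (24.2–40.1; 64 UMIs) at P7. Pericytes ran against this, with 16.7 CPM (12.4–21.9), 7.83 CPM (5.12–11.5) and, at P7, 1 UMI.

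The muscle gate was also set against all gated fibroblasts of the same library. At E15.5, 1 of 5 members with enough UMIs was at least 1.5-fold higher in muscle (8.58% of 7821 genes were) and 3 were lower (17.48% of genes). The counts were 1 higher and 2 lower of 5 at E17.5, against 12.3% and 29.6% of 7206 genes, and 1 higher and 1 lower of 3 at P7, against 22.5% and 14.0% of 1990 genes. Osr1 was the higher one each time, at 2.63 (2.32–2.95), 0.59 (0.32–0.86) and 0.61 (0.31–0.91) on the log2 scale. Nkx2-3 was lower in muscle at all 3 stages, at -1.58 (-1.66 to -1.50), -1.45 (-1.52 to -1.37) and -1.02 (-1.17 to -0.87). Tcf21 was lower at -1.39 (-1.51 to -1.26), -2.76 (-2.96 to -2.57) and -3.05 (-3.46 to -2.66), the last from 56 muscle UMIs. Foxf2 was lower in muscle at E15.5, at -0.69 (-0.83 to -0.55), and within 1.5-fold later, at -0.28 (-0.45 to -0.12) and -0.38 (-0.83 to 0.05). The fibroblasts set against muscle changed with stage. Subepithelial cells were 737 of 1954 of them at E15.5, 473 of 3860 at E17.5 and 8 of 749 at P7. Beside mucosal fibroblasts alone, muscle had 55.9 against 89.9 CPM of Foxf2 at E15.5 and 38.4 against 59.8 CPM at E17.5. The part of the changing mix in these contrasts was not tested. Foxf1 stayed within 1.5-fold at all 3 stages, at 0.31 (0.24–0.37), 0.08 (0.01–0.15) and -0.44 (-0.66 to -0.22).

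**Figure D2:**
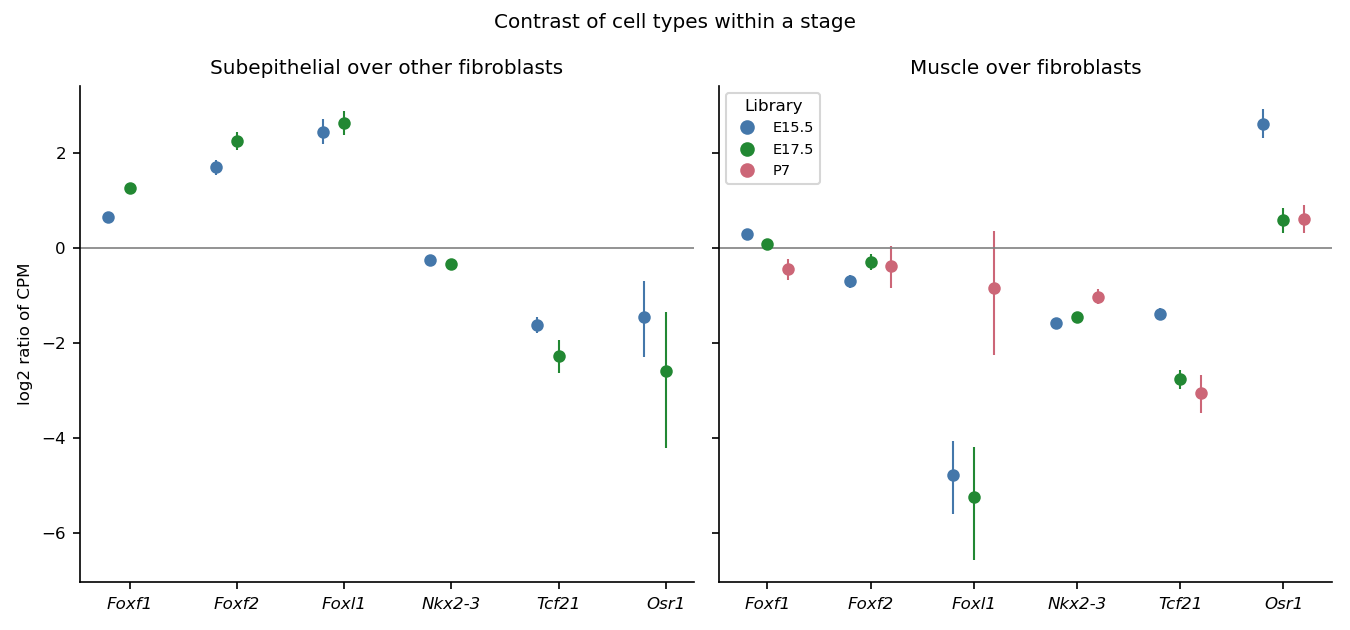
Log2 ratio of CPM of each gene, subepithelial over other gated fibroblasts and muscle over all gated fibroblasts, within each library, with 95% counting intervals. Foxl1, Foxf2 and Foxf1 lie above 0 in the subepithelial contrast (2.46, 1.71 and 0.65 at E15.5), and Osr1 lies above 0 and Tcf21 and Nkx2-3 below 0 in the muscle contrast.

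At E17.5 the members were lower than at E15.5 or close to it over all gated cells, where the median gene stood at -0.16 on the log2 scale. The ratio of E17.5 over E15.5 was at least 1.5-fold lower for 2 of the 6 members, Foxf2 at -0.73 (-0.83 to -0.64) and Osr1 at -0.70 (-0.83 to -0.57), where 9.03% of 10824 genes were lower. None of the 6 was higher, where 6.34% of genes were. The median of the 6 was -0.38. Foxl1 was at -0.49 (-0.65 to -0.32), Foxf1 and Tcf21 were both at -0.26, and Nkx2-3 was at 0.01 (-0.03 to 0.05). Relative to the median gene, Foxf2 stood at -0.58, Osr1 at -0.54 and Nkx2-3 at 0.16, so that neither Foxf2 nor Osr1 was past 1.5-fold on that scale.

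Within kinds the Foxf2 difference was not shared evenly. Foxf2 was at -0.03 (-0.21 to 0.15) in subepithelial fibroblasts, -0.59 (-0.80 to -0.38) in mucosal and -1.11 (-1.41 to -0.80) in deep fibroblasts. Of 5 members counted in mucosal fibroblasts, Foxf2 was the 1 called lower (14.5% of 4765 genes were lower and 4.78% higher). Of 4 counted in deep fibroblasts it was again the 1 (13.1% of 7080 genes were lower and 5.11% higher). In subepithelial fibroblasts 0 of 4 counted members were called, where 13.7% of 3245 genes were higher and 9.37% lower, and in pericytes 0 of 3 were, where 6.24% of 4038 genes were higher and 7.31% lower. In muscle 2 of 5 counted members were lower and 0 higher, against 17.48% and 4.25% of 7192 genes: Tcf21 at -1.53 (-1.76 to -1.31) and Osr1 at -1.14 (-1.39 to -0.90). Tcf21 was also the 1 of 4 members lower in Cajal cells, against 2.95% of 3290 genes lower and 6.6% higher, at -0.67 (-0.91 to -0.43). In subepithelial fibroblasts Tcf21 was at -1.07 (-1.46 to -0.69), not counted because it had 70 UMIs at E17.5. Within 1.5-fold, Tcf21 was at -0.57 (-0.73 to -0.41) in mucosal fibroblasts, -0.20 (-0.29 to -0.10) in deep fibroblasts and -0.27 (-0.53 to -0.02) in pericytes. Foxf1 had both signs, 0.44 (0.32–0.55) in subepithelial fibroblasts and 0.49 (0.36–0.61) in Cajal cells against -0.44 (-0.54 to -0.34) in deep fibroblasts and -0.47 (-0.55 to -0.40) in muscle, all within 1.5-fold. Foxl1 in subepithelial fibroblasts was at 0.20 (-0.04 to 0.43), and subepithelial cells were 473 of 6146 gated cells at E17.5 and 737 of 4006 at E15.5; the part of that share in the Foxl1 ratio over all gated cells was not tested.

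Over all gated cells Nkx2-3, Tcf21 and Osr1 were higher at P7 than at E17.5 and no forkhead gene was called. Of the 5 counted members 3 were at least 1.5-fold higher at P7, where 20.5% of 7217 genes were, and 0 were lower, where 4.63% of genes were. The ratio of P7 over E17.5 was 0.75 (0.70–0.81) on the log2 scale for Nkx2-3, 1.20 (1.11–1.29) for Tcf21 and 1.80 (1.63–1.96) for Osr1. It was -0.21 (-0.30 to -0.12) for Foxf1 and 0.20 (0.01–0.39) for Foxf2, and the median gene stood at 0.19. Relative to the median gene Nkx2-3 stood at 0.57, Tcf21 at 1.02 and Osr1 at 1.61, so that Nkx2-3 was no longer past 1.5-fold on that scale. Foxl1 was at -1.09 (-1.58 to -0.64) from 42 UMIs at P7 and was not counted. With the 5 kinds that had 50 or more cells at every stage weighted as at E15.5, which leaves out subepithelial and adventitial cells, the Foxl1 ratio came to -0.46.

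The differences between E17.5 and P7 were seen in some kinds and not in others. Tcf21 was higher in mucosal fibroblasts by 1.91 (1.77–2.05), as the 1 of 4 counted members (20% of 3351 genes were higher and 5.31% lower), and in deep fibroblasts by 0.96 (0.75–1.16), as 1 of 2 (22.3% of 826 genes were higher and 10.7% lower). In adventitial fibroblasts Tcf21 was at 1.75 (1.30–2.23) from 50 UMIs at E17.5, while in pericytes it was at -0.56 (-1.11 to -0.05). Osr1 was at 4.84 (3.82–6.03) in mucosal fibroblasts, from 64 UMIs at P7 and 9 at E17.5, at 2.42 (1.91–2.91) in deep fibroblasts and at 0.84 (0.39–1.26) in Cajal cells. Nkx2-3 was above 0 in mucosal (0.58, 0.50–0.66), adventitial (0.79, 0.49–1.10), Cajal (1.15, 0.73–1.55) and pericyte (0.52, 0.33–0.70) gates, and adventitial fibroblasts gave the 1 call of 2 counted members, where 9.64% of 1203 genes were higher and 16.9% lower. The interval held 0 for Nkx2-3 in deep fibroblasts (0.18, -0.05 to 0.39), Osr1 in adventitial fibroblasts (0.31, -0.05 to 0.68) and Tcf21 in Cajal cells (0.12, -0.62 to 0.79). In pericytes 0 of 2 counted members were called, where 24.7% of 1204 genes were higher and 13.1% lower. Foxl1 in mucosal fibroblasts was at -1.36 (-1.98 to -0.80), from 28 UMIs at P7.

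**Figure D3:**
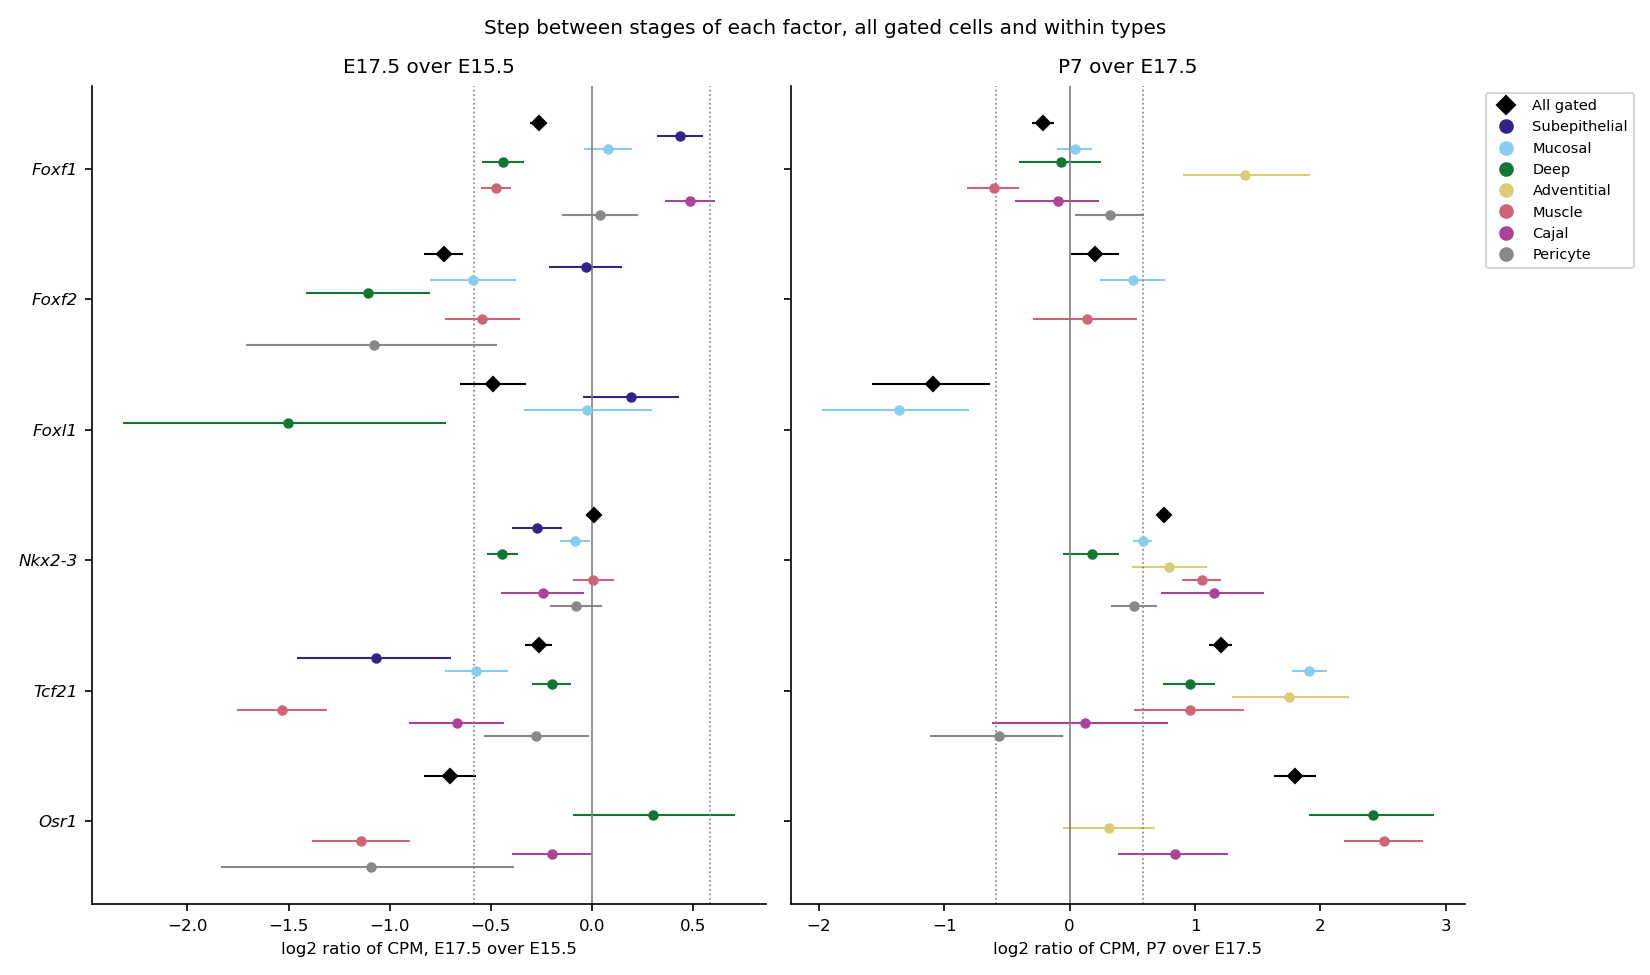
Log2 ratio of CPM of each gene, E17.5 over E15.5 and P7 over E17.5, in each gated kind of cell and in all gated cells (diamond), for values with 20 or more UMIs on both sides, with 95% counting intervals and dotted lines at 1.5-fold. Nkx2-3, Tcf21 and Osr1 lie above 0 in all gated cells at the later step (0.75, 1.20 and 1.80), and Foxf2 and Osr1 lie lowest at the earlier one.

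Shares of cells with a UMI were compared after each cell was thinned to 3000 UMIs. Osr1 was detected in 0.533%, 0.313% and 8.38% of mucosal fibroblasts at E15.5, E17.5 and P7 (0.526%, 0.557% and 10.8% unthinned), against 0 of 1177, 0.0726% and 0.0176% of epithelial cells, where 0 of 1177 allows up to 0.255%. Tcf21 was detected in 40.8%, 24.1% and 64.7% of mucosal fibroblasts (63.2%, 38.3% and 75% unthinned), against 0.34%, 0.145% and 0.141% of epithelial cells. Nkx2-3 was detected in 78.1%, 75.5% and 88.8% of mucosal fibroblasts (94.5%, 85% and 92.9% unthinned), against 0.51%, 0.581% and 0.159% of epithelial cells. The higher P7 levels of these genes in mucosal fibroblasts were thus also seen as more cells with a UMI. Foxl1 was detected in 24.1% and 24.9% of subepithelial fibroblasts at E15.5 and E17.5 (42.7% and 31.9% unthinned), with 0.085% of epithelial cells at E15.5 and 0 of 1378 at E17.5, which allows up to 0.218%. The unthinned share was higher at E15.5, whose cells were deeper, while the thinned shares overlapped (21 to 27.3% and 20.7 to 29.6%).

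Single cells that shared members were counted in the same thinned cells, as a description. Over all gated cells Foxf2 was found in 42.4% of 243 Foxl1-positive cells and 14.4% of the other 3702 cells at E15.5, and in 28.2% of 227 and 9.06% of 5318 cells at E17.5. These shares pool kinds that differ in both genes. At E15.5 Foxf2 was found in 40.4% of all thinned subepithelial cells and 20.3% of mucosal cells. It was found in 13.3% of muscle, 9.49% of deep, 6.73% of pericyte and 2.64% of Cajal cells. The part of the mix of kinds in the pooled shares was not tested. In the muscle gate Osr1 and Foxf2 were rarely found together. Of 152 Foxf2-positive muscle cells 2.63% had Osr1 at E15.5, against 11.1% of the other 987, and at E17.5 0 of 121 did, which allows up to 2.48%, against 5.8% of 1104. Tcf21 went with Osr1 instead: it was found in 36% of 114 Osr1-positive muscle cells and 15.3% of the other 1025 at E15.5, and in 25% of 64 and 5% of 1161 at E17.5.

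Dlk1 and Lsp1, chosen after values were seen, split the embryonic muscle gate along the same line. At E15.5, 723 muscle cells had a UMI of both genes and 427 did not, and Osr1 was at 65 CPM (59.1–71.2; 451 UMIs) in the cells with both and at 0.539 CPM (0.0653–1.95; 2 UMIs) in the rest. At E17.5, Osr1 was at 62.3 CPM (53.8–71.7) in 376 cells with both and at 1.46 CPM (0.731–2.62; 11 UMIs) in 874 others, 42.6-fold apart or 5.41 on the log2 scale (4.54–6.44). Cells with both transcripts thus held 451 of 453 Osr1 UMIs of the muscle gate at E15.5 and 194 of 205 at E17.5, with overlapping Osr1 levels at both stages. In the other gates split this way Osr1 differed less: in Cajal cells by 0.49 (-0.02 to 1.05) and 0.32 (-0.05 to 0.71) on the log2 scale, and in deep fibroblasts by 0.75 (-0.85 to 3.05) and 0.87 (0.14–1.69), at E15.5 and E17.5. Most cells of these gates had both transcripts. Cells with both and the rest numbered 538 and 52 at E15.5 and 328 and 158 at E17.5 in the Cajal gate. In the deep gate they numbered 752 and 62, and 1404 and 412. In the muscle gate Tcf21 was 2.36-fold higher in the cells with both at E15.5 (76.9 and 32.6 CPM) and 3.21-fold higher at E17.5 (41.4 and 12.9 CPM). Foxf2 was lower in them, at 48.5 and 69.6 CPM at E15.5 and at 19.9 and 46 CPM at E17.5, and Foxf1 differed less, at 309.7 and 359.7 CPM and at 217 and 243 CPM. Other transcripts moved with this split: the muscle actin Actg2 was at 5642 CPM in the E15.5 cells with both and 11404 CPM in the rest, and the Cajal marker Kit was at 14.3 and 0.539 CPM. The other Cajal markers did not all follow Kit. Etv1 was at 46.4 and 24.8 CPM, Ano1 at 26.9 CPM (23.2–31.1) and 35.3 CPM (29.5–41.9), and Prkcq had 2 UMIs and 1 UMI. The part of depth and of Cajal-type RNA in the split was not tested. At P7 only 11 muscle cells had both transcripts.

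The P7 muscle gate held another split. Elastin, Eln, a matrix gene that is strong in vascular smooth muscle, reached 10 or more per 10000 UMIs in 127 of its 257 cells and in 0 muscle cells at E15.5 and E17.5. Foxf1 was at 92.6 CPM in the cells high in Eln and at 205 CPM in the other 130. Osr1 had 3 UMIs (4.96 CPM, 1.02–14.5) in the cells high in Eln and 194 CPM (164–229) in the others. The Osr1 level of the others overlapped that of the P7 Cajal gate (266 CPM, 199–349). Foxf2 had 3 UMIs (4.96 CPM) in the cells high in Eln and 72.4 CPM in the others, and Tcf21 had 2 UMIs (3.31 CPM) and 72.4 CPM. Nkx2-3 was not lower in them, at 352 CPM (306–403) in the cells high in Eln and 278 CPM (241–318) in the others. The cells high in Eln also had the forkhead gene Foxc1 at 136 CPM, against 1.34 CPM, and the mural-cell receptor Notch3 at 293 CPM, against 5.36 CPM. With the whole gate, 2 of 3 counted members were higher in P7 than E17.5 muscle (24.1% of 2051 genes) and 1 was lower (7.7% of genes): Nkx2-3 at 1.05 (0.89–1.21), Osr1 at 2.51 (2.19–2.82) and Foxf1 at -0.61 (-0.82 to -0.40). Without the cells high in Eln, these came to 0.89 (0.67–1.10), 3.33 (3.02–3.65) and -0.20 (-0.44 to 0.04), and Tcf21, at 0.96 (0.51–1.39) in the whole gate, came to 1.77 (1.31–2.20). Some fibroblast markers moved with these cells: Adamdec1, of the mucosal list, was at 728 CPM in the P7 muscle cells not high in Eln (1.65 CPM in those high in Eln), against 25.7 CPM in E17.5 muscle. Ogn, of the deep list, was at 404 CPM, against 89.3 CPM, and Col6a4 at 41.6 CPM, against 9.97 CPM, and their part in the Tcf21 and Osr1 ratios was not tested. Other fibroblast markers did not rise. Cxcl13, also of the deep list, had 0 UMIs (0–4.95 CPM) in the P7 muscle cells not high in Eln, against 6.12 CPM (4.72–7.8) in E17.5 muscle. Cd34 and Pi16, of the adventitial list, had 0 UMIs in these P7 cells, against 11 UMIs and 1 UMI. Where cells were named by clusters instead, the Tcf21 ratio in muscle had the other sign, -1.40. The P7 contrast of muscle over fibroblasts came to 1.44 (1.14–1.74) for Osr1, -1.18 (-1.39 to -0.97) for Nkx2-3, -2.25 (-2.67 to -1.85) for Tcf21 and -0.03 (-0.29 to 0.22) for Foxf1 without the cells high in Eln. For Foxf2 it came to 0.40 (-0.06 to 0.84), against -0.38 (-0.83 to 0.05) with the whole gate. The Foxf2 ratio of P7 over E17.5 muscle, 0.14 (-0.29 to 0.54) with the whole gate, came to 0.92 (0.48–1.33), from 54 UMIs at P7. The part of the fibroblast markers in these Foxf2 values was not tested.

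**Figure D4:**
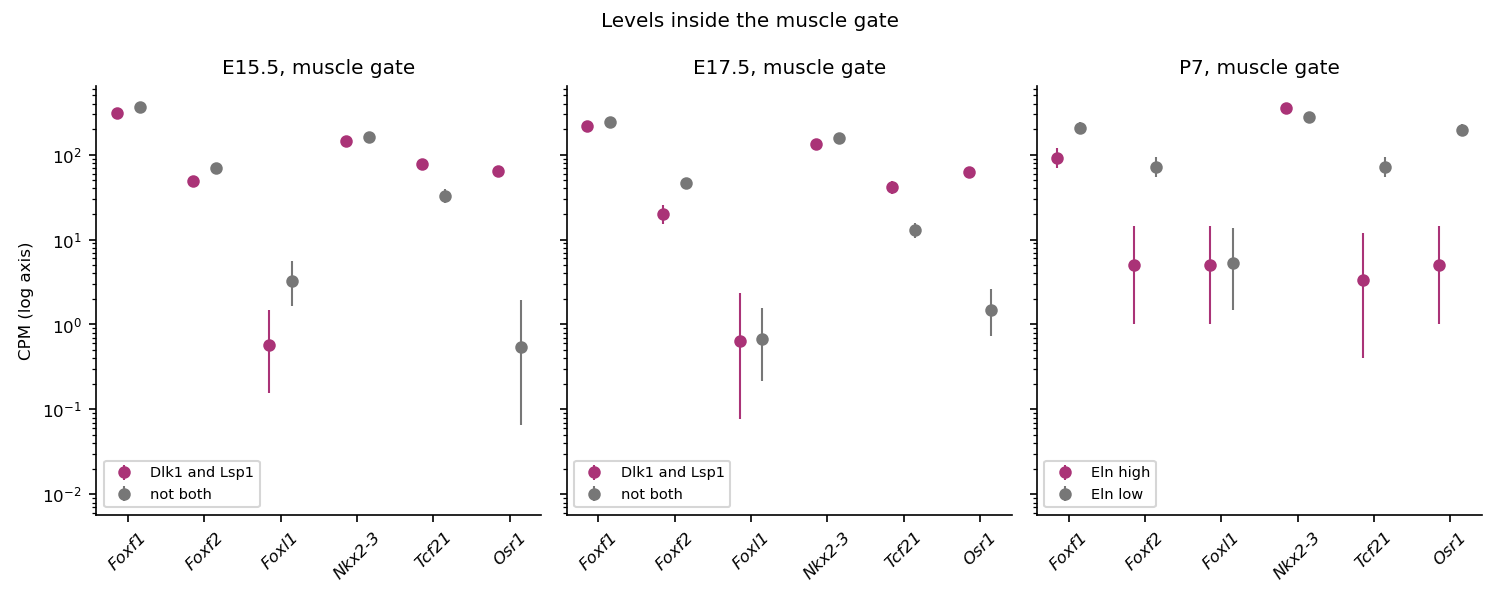
Level of each gene in CPM (log axis) in the embryonic muscle gate split by detection of Dlk1 and Lsp1, and in the P7 muscle gate split by Eln, with 95% counting intervals. Osr1 differs most in each split (65 against 0.539 CPM at E15.5, and 4.96 CPM in cells high in Eln against 194 CPM), and Nkx2-3 is not lower in cells high in Eln.

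Genes with the most similar pattern were ranked over 19 sums, 1 for each kind and stage with 50 or more cells, by Pearson's r of log2(CPM + 5) among 9321 genes; the sums share 3 libraries and the r values are a description. Foxf1 was most like its divergent neighbour Fendrr (r = 0.92), then Msi2 (0.88), an RNA-binding protein gene, and Slc24a5 (0.87). Fendrr stood at 238, 336 and 176 CPM in subepithelial fibroblasts, the last from 6 UMIs, and at 113, 106 and 149 CPM in Cajal cells, and it was at 38.9, 29.2 and 42.9 CPM in pericytes. Foxf2 was most like Eva1a (0.87), Ptch1 (0.84), the Hedgehog receptor that is also a Hedgehog target, and Tshz1 (0.83), and Foxl1 was in place 10 on its list (0.80). Foxl1 was most like Col6a4 (0.95), a marker that the mucosal gate used, Arap3 (0.95) and Dll1 (0.94), a Notch ligand.

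Nkx2-3 was most like Gm20467 (0.86), whose RefSeq promoter window overlaps that printed above, then Nr2c1 (0.86) and Aard (0.84). Gm20467 was low, at 25.2, 26.5 and 37.7 CPM in mucosal fibroblasts and 12.9, 13.2 and 24.4 CPM over all gated cells at E15.5, E17.5 and P7. Neither Fendrr and Foxf1 nor Gm20467 and Nkx2-3 overlap in the annotation. Tcf21 was most like Nfia (0.91), a nuclear factor I gene, Phip (0.91) and Tmem121 (0.90), and Osr1 was most like Dkk2 (0.89), a secreted regulator of Wnt signalling, Rdh14 (0.86) and Coq9 (0.84). Among the members, Foxf2 and Foxl1 were most alike (0.80) and Foxl1 and Osr1 least (-0.65). Foxq1, the nearer forkhead gene to Foxf2, was at 71.8 and 97.5 CPM in subepithelial fibroblasts at E15.5 and E17.5, against 3.34 and 7.81 CPM in mucosal ones, while Foxc1 was at most at 2.11 CPM in any gate before birth.

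**Figure D5:**
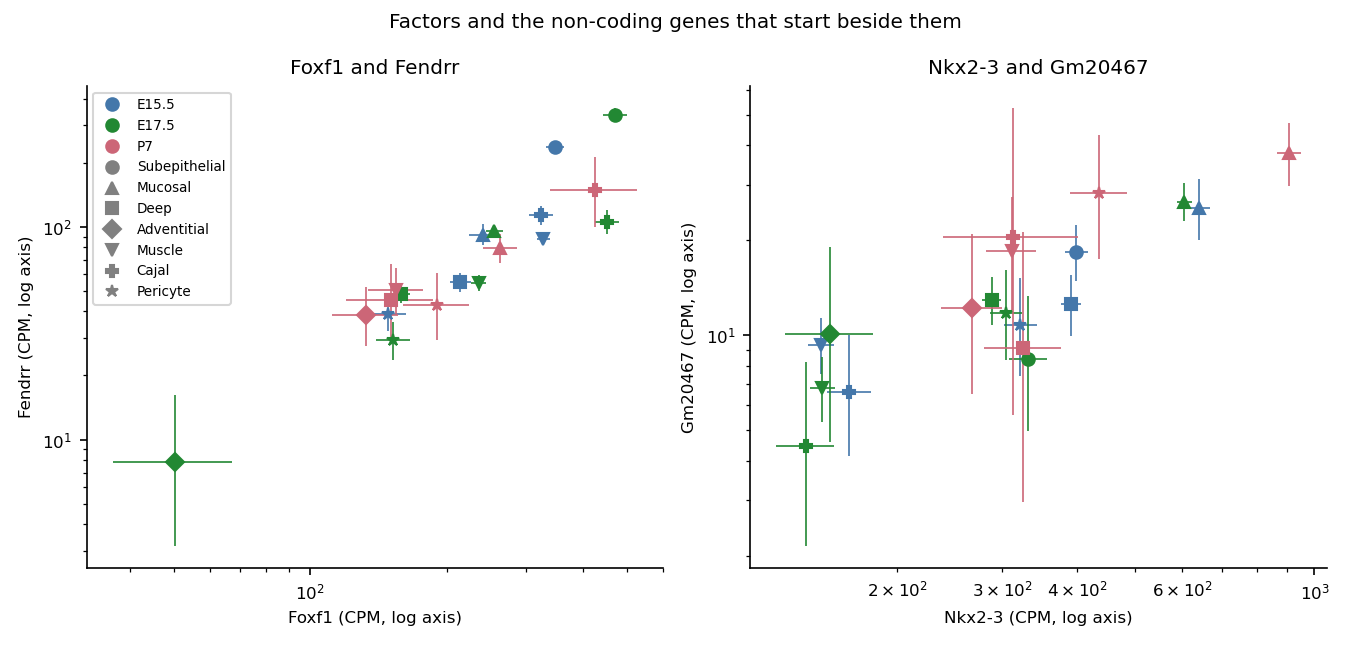
Levels of divergent gene pairs in CPM (log axes) over the gated kinds and stages, Fendrr against Foxf1 and Gm20467 against Nkx2-3, 1 point for each kind and stage. The points of each pair run together, with r = 0.92 and r = 0.86 over 19 sums.

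Lists of pathway genes were read in the same gated cells by their counts and medians, beside medians of -0.16 and 0.19 over all genes counted at the first and second step. Of all genes counted, 6.34% were higher and 9.03% lower at the first step, and 20.5% and 4.63% at the second. Of 8 Hedgehog response genes 7 were counted between E15.5 and E17.5, with 0 higher and 1 lower, the Hedgehog-binding inhibitor Hhip at -0.70, and a median of -0.24. Between E17.5 and P7, 6 were counted, with 2 higher, among them Hhip at 0.83, 0 lower, Gli3 lowest at -0.46, and a median of 0.39. Of 6 Wnt and BMP genes placed downstream of FOXF and FOXL1, 4 were counted at both steps. At the first step 1 was higher, Wnt4 at 1.21, and 1 was lower, the non-canonical Wnt ligand Wnt5a at -0.62, with a median of -0.12. At the second step 1 was higher, Wnt4 at 1.32, and 0 were lower, with Wnt5a lowest at -0.27 and a median of 0.34. Madcam1, the NKX2-3 related gene, had 4, 27 and 22 UMIs in all gated cells and was not counted. Of 31 other gut mesenchyme transcription factors 18 were counted at the first step, with 1 higher (Twist2 at 0.64) and 6 lower (Meis2 lowest at -1.01) and a median of -0.30. At the second step 16 were counted, with 7 higher (Prrx1 highest at 2.87), 1 lower (Hand1 at -1.69) and a median of 0.35. Within kinds the lists could differ from this. In muscle 3 of 4 counted Hedgehog genes were lower at E17.5, where 17.48% of genes were: Hhip at -0.96, the receptor gene Ptch1 at -0.87 and Smo, the signal transducer, at -0.69. In mucosal fibroblasts 3 of 3 counted Wnt and BMP genes were higher at P7, where 20% of genes were: Wnt4 at 1.78, the BMP ligand gene Bmp4 at 0.71 and the secreted Wnt inhibitor gene Sfrp1 at 0.67. Of the 5 neighbours Fendrr was at -0.42 and -0.35.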

How the data were processed

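RNA of single cells was read with Chromium 3' v2 chemistry, per the labels. The authors deposited raw UMI counts per gene and cell, made with Cell Ranger 7.2.0 on mm10 (GRCm38), per the submitters' processing notes; the strand setting of the counting is not given in the sources used here, and the largest mitochondrial share in a deposited cell was near 15%. The files give 1 library per stage, and no replicate.

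Doublets were called with Scrublet in scanpy 1.11.5 (expected 6%), and 243, 453 and 389 cells were removed at E15.5, E17.5 and P7. Each marker was put on a log scale per 10000 UMIs and divided by its 95th percentile among cells that had it. A cell was called mesenchymal when its mean over 5 general mesenchymal markers was at least 0.2 and no epithelial, neural, endothelial, immune or other such list reached 0.2. Among these, markers were standardised with equal weight per library, and a cell was gated to the kind with the highest mean where that was at least 0.3 and led the second by 0.2. Gated epithelial and neural cells served as background. The members and lists were chosen with earlier results of these data known, and the score thresholds were set after the data were seen.

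UMIs were summed per gate and library and divided by the total. Intervals are at 95%: exact Poisson for levels, Clopper-Pearson for shares of cells, and conditional on the summed UMIs (binomial, exact) for ratios. Where a count is 0, the limit given is 3 counts of the total. Intervals and limits cover counting error only. The ratio intervals were checked on simulated counts. Genes counted needed 100 UMIs on both sides, and 1.5-fold was the call. The genes named are the 6 members, the 3 genes most like each, the ends of each list and calls of 5 or fewer, apart from 1 gene that is not reported here; Foxc1, Notch3, Actg2, Kit, Dlk1, Lsp1, Adamdec1, Ogn, Col6a4 and the list genes named within kinds were chosen after their values were seen. Alternatives were clusters (leidenalg 0.10.2, igraph 0.11.9) in place of gates, a stricter gate, another scaling, thinned cells, per-cell means and sets of genes or cells left out. Software was python 3.11.15, numpy 2.4.6, scipy 1.17.1, pandas 2.3.3 and matplotlib 3.10.9.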

Additional observations from a re-analysis of the deposited data

Results flagged for a closer look

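Foxf1 moved in opposite directions in 2 kinds of cell between E17.5 and P7: its ratio of P7 over E17.5 was 1.40 on the log2 scale in adventitial fibroblasts and -0.61 in muscle. The adventitial value rests on 45 UMIs at E17.5, and without the cells high in Eln the muscle value was -0.20. Foxl1 also had both signs at this step, 2.98 in muscle, from 7 UMIs at each stage, and -1.36 in mucosal fibroblasts. Neither difference was tested, since each stage is 1 library.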

How the results depend on the processing

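The 106 values were recomputed under 14 alternative settings, which gave 853 further values. Among them, the UMI minimum of 50 was tried on the 4 shares of all genes called over all gated cells, which stayed within 1.5-fold. Shares within kinds were not among them, and the share of genes lower at E17.5 in Cajal cells was 2.95% at 100 UMIs and 4.58% at 50. Pseudocounts of 1 and 20 CPM were tried on the r value of the gene most like each member at 5 CPM, which stayed at 0.84 to 0.95. That gene stayed first for each member but Foxl1, where at 20 CPM Arap3 (0.97) and Dll1 (0.96) came before Col6a4 (0.95). Of 32 ratios called at 1.5-fold with 100 or more UMIs on both sides, 32 kept their sign under the 7 settings that could be run on all of them, and 26 to 30 were still past 1.5-fold, the fewest with the median-gene scaling. Under clusters 31 of 31 kept their sign and 27 were still past 1.5-fold. With fewer UMIs, and so not counted, Tcf21 in muscle, P7 over E17.5, changed sign to -1.40 under clusters. The values without cells high in Eln and those with ungated cells added were chosen after seeing the data: 18 of 19 and 4 of 5 called ratios were still past 1.5-fold in these, as were 4 of 5 with weighted kinds, and all kept their sign.

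Over all gated cells, the E17.5 over E15.5 ratios that moved beyond their counting intervals were as follows on the log2 scale. A stricter gate gave Foxf1 -0.32, Nkx2-3 0.16 and Tcf21 -0.18, and clusters gave Foxf1 -0.20, Nkx2-3 -0.16 and Osr1 -0.50. Scaling by the median gene gave Foxf1 -0.11, Foxf2 -0.58, Nkx2-3 0.16, Tcf21 -0.11 and Osr1 -0.54. With ungated cells added, Foxf1 was -0.20, Nkx2-3 -0.16, Tcf21 -0.34 and Osr1 -0.51. With mucosal, deep, muscle, Cajal and pericyte gates weighted as at E15.5 and the subepithelial and adventitial gates left out, Foxf1 was -0.18, Nkx2-3 -0.18, Tcf21 -0.50 and Osr1 -0.48. Thinning gave Nkx2-3 0.12 and Tcf21 -0.19, and per-cell means Nkx2-3 0.13 and Tcf21 -0.17. The count of members at least 1.5-fold lower, 2 as reported, was 1 under clusters, with ungated cells and with weighted kinds, and 0 under the other scaling.

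For P7 over E17.5, the stricter gate gave Foxf1 -0.33, Nkx2-3 0.84, Tcf21 1.31 and Osr1 2.02, and the median-gene scaling Foxf1 -0.40, Nkx2-3 0.57, Tcf21 1.02 and Osr1 1.61. Without mitochondrial, haemoglobin and ribosomal protein genes in the total, Foxf1 was -0.38, Nkx2-3 0.59 and Tcf21 1.04. Without cells that had Epcam, Fabp2 or Apoa4, which left 42 of 436 mucosal cells at P7, Foxf1 was -0.30, Foxf2 -0.070, Nkx2-3 0.82 and Osr1 1.26. Weighted kinds gave Foxl1 -0.46, Nkx2-3 0.65 and Tcf21 0.99. Leaving out cells high in Eln gave Tcf21 1.36. Osr1 was 1.56 under clusters, 1.57 with ungated cells and 1.45 as a per-cell mean. The cause of these shifts was not tested.

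No paired analysis was possible because each stage has 1 library, and the replicate number 1 that they share only names it. Depth limits the scarce members most: Foxl1 had 42 UMIs in all gated P7 cells, and ratios with under 20 UMIs on a side were not recomputed.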
